A study of Mus musculus with 18 samples.

Results

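Sites of candidate 5-methylcytosine (m5C) with a score of at least 500 in at least 1 of 9 bisulfite libraries were taken from mouse RNA labelled as neuronal. They numbered 2618 of the 25890 distinct sites listed in the 9 libraries, and a site is a chromosome, a position and a strand. They were selected on the score itself, so every score below is a description and no score was tested. The score is 10 times the call score that the program meRanCall gave to a site, cut to its whole part, and its scale ends at 1000. It grows with the coverage and with the methylation level of a site together, so that neither can be read from it.

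The libraries compare untreated cells with cells deprived of oxygen and glucose and then reoxygenated (OGD/R), a culture model of ischaemia and reperfusion, and the files serve to ask where m5C lies in each state. Each of the 3 groups has 3 bisulfite libraries. A further 9 mock libraries, made without bisulfite, were not analysed here. All cells are given as neurons of the cerebral cortex of C57BL/6 mice, isolated at day 18 of fetal life. The control group had no deprivation. The OGD/R 1.5 h group was held in glucose-free medium under hypoxia for 1.5 h, and the OGD/R 3 h group for 3 h, and both were then returned to normal medium for 24 h. Ribosomal RNA was depleted before bisulfite treatment with a commercial RNA methylation kit, and the libraries were stranded total RNA libraries. Read depth is not given in the files and is unknown. In the control and OGD/R 3 h groups each pair of libraries differed in coverage by less than sampling noise, as the study's own tables give it for a part of the sites. No such comparison was at hand for OGD/R 1.5 h, which was treated alike, and the 3 libraries of each group were counted as 1 sample. Values per library show the spread between sequencing libraries only.

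Bisulfite turns unmethylated cytosine into uracil, while m5C is read as cytosine. In mammals the enzyme NSUN2 writes m5C in the variable loop of many transfer RNAs (tRNAs) and in some mRNAs, DNMT2 methylates the anticodon loop of a few tRNAs, and NSUN6 acts near the 3′ end of certain tRNAs and on an mRNA motif. Strong base pairing can protect a cytosine from bisulfite, so stable folds can retain cytosines that carry no mark. Small nucleolar RNAs (snoRNAs) guide other modifications on ribosomal RNA, and most are cut from introns of host genes such as Gas5.

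The label was checked against marker genes. None of 20 neuron markers, among them Tubb3, Map2, Snap25 and Rbfox3, carried a single listed site in any library, so neither a high-score site nor any lower one fell on them. Of 25 markers of intestinal epithelium, 24 carried a listed site and 15 carried a high-score site. The files hold sites and no expression values, and the source of the RNA was not tested.

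The first set of sequences shows tRNA genes because high scores recurred there at positions 48 to 50 and, in some genes, at position 38. In all genes shown but n-TDgtc5, cytosines elsewhere were high-score sites too. All sequences are RefSeq GRCm38.p6 (mm10), written 5′ to 3′ on the strand of the gene as DNA, and capitals mark high-score cytosines. The genes lie at chr1:34434812-34434883 (minus strand, n-TEttc1), chr1:171044985-171045055 (plus strand, n-TGgcc4), chr1:171102756-171102827 (plus strand, n-TGtcc3), chr1:171102371-171102442 (plus strand, n-TDgtc5) and chr10:91182097-91182168 (minus strand, n-TDgtc16). They were chosen after the values were seen, among the tRNA genes with a site of 500 or more in all 9 libraries.
n-TEttc1 (tRNA-Glu): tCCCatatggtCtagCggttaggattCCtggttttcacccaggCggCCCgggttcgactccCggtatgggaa
n-TGgcc4 (tRNA-Gly): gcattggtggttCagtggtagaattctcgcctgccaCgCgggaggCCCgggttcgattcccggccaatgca
n-TGtcc3 (tRNA-Gly): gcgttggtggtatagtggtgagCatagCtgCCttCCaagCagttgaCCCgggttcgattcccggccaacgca
n-TDgtc5 (tRNA-Asp): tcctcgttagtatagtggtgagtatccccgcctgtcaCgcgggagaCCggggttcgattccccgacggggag
n-TDgtc16 (tRNA-Asp): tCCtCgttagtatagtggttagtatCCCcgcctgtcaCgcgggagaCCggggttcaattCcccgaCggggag

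The second set shows 3 snoRNA genes in which almost every cytosine was a high-score site. They were chosen after the values were seen. Snord47 (chr1:161038092-161038156, plus strand) lies in Gas5, Gm25117 (chr10:111481493-111481636, plus strand) is annotated as SNORA48, and Gm25835 (chr11:69668852-69668995, minus strand) as SNORD10.
Snord47: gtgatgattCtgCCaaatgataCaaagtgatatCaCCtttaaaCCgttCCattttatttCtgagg
Gm25117: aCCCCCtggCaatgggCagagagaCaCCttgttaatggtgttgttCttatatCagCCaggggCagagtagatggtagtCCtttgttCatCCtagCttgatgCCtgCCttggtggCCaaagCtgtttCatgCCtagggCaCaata
Gm25835: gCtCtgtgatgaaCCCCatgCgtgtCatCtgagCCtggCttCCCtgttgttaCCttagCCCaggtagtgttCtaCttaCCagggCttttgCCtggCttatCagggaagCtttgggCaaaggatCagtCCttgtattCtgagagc

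High-score sites lay in 13 miRNA precursor genes, and 12 of these were found in the RefSeq table. The mature miRNAs that hold high-score cytosines are shown with the seed, bases 2 to 8, in capitals, as the seed sets which mRNAs a miRNA pairs with. Let-7i-5p and let-7d-5p share a seed and stand first, and each of the others has a seed of its own in this set. Their genes lie on the minus strand, but for those of miR-126a, miR-223 and miR-451a on the plus strand. Positions within a miRNA are counted from its 5′ end.
mmu-let-7i-5p: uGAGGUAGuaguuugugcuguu
mmu-let-7d-5p: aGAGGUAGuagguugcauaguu
mmu-miR-21a-5p: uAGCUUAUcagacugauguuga
mmu-miR-146a-5p: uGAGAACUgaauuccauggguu
mmu-miR-126a-3p: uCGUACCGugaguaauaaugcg
mmu-miR-451a: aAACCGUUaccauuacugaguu
mmu-miR-223-5p: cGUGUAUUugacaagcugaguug
mmu-miR-423-3p: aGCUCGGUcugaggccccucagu
mmu-miR-423-5p: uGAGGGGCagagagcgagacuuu
mmu-miR-93-5p: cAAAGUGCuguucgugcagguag
mmu-miR-107-3p: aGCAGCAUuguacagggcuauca
mmu-miR-101a-3p: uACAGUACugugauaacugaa
mmu-miR-3535: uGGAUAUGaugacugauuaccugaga

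The last set shows coding stretches of mRNA, again with high-score cytosines in capitals and chosen after the values were seen. Fcgbp (chr7:28086679-28086699, plus strand), Lgals4 (chr7:28835937-28835957, plus strand), Apoa1 (chr9:46230028-46230048, plus strand) and Apoa4 (chr9:46242978-46242998, plus strand) are windows of 21 nt around a site of 500 or more in all 9 libraries. Hbb-bs (chr7:103827833-103827869, minus strand) is a stretch listed in OGD/R 3 h only, where every cytosine scored 1000.
Fcgbp: gtagaagtggCtgtgcgaagg
Lgals4: gaCaatggggCaaggaagaga
Apoa1: aaggtggcgCCtCtgggCgCc
Apoa4: gaacaggCagCtggagcagCa
Hbb-bs: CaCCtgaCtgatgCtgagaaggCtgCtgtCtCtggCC

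Every OGD/R 3 h library listed more high-score sites than any library of the other groups. Control replicates 1, 2 and 3 listed 1041, 1067 and 1078 of the 2618 sites, and in 593, 624 and 619 of their sites the score was 500 or more. OGD/R 1.5 h replicates 1, 2 and 3 listed 1047, 1161 and 1087 high-score sites, with 688, 791 and 723 at 500 or more. OGD/R 3 h replicates 1, 2 and 3 listed 1415, 1425 and 1523, with 1172, 1227 and 1239 at 500 or more. The 3 groups did not overlap in the number of sites at 500 or more. The OGD/R 3 h libraries also listed more sites of any score, at 7772, 7266 and 7376, against 6021, 6254 and 5907 in control and 5423, 5745 and 5684 in OGD/R 1.5 h. As shares of the library's own sites, sites at 500 or more made up 9.85% to 10.5% in control, 12.7% to 13.8% in OGD/R 1.5 h and 15.1% to 16.9% in OGD/R 3 h. Since the score grows with coverage, a difference in depth and a difference in methylation cannot be told apart here.

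**Figure D1:**
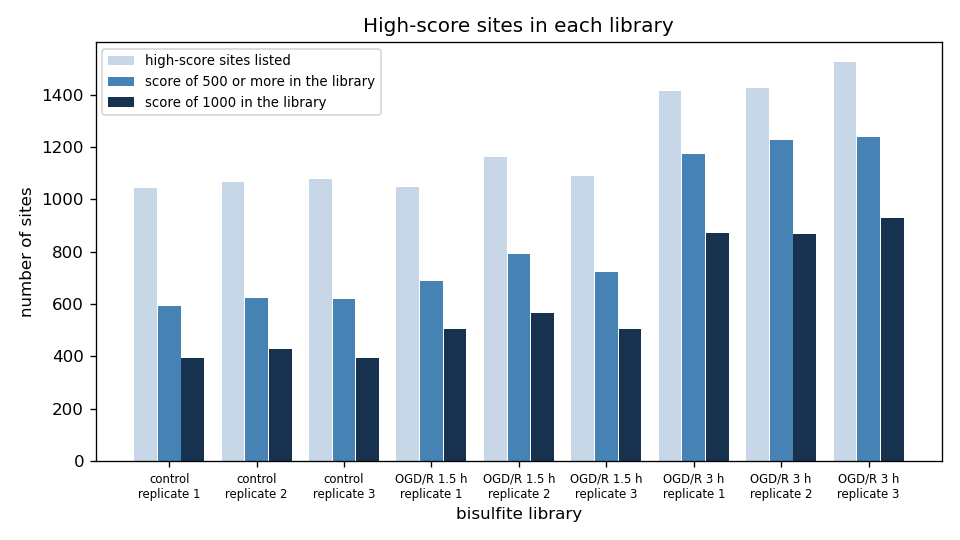
Number of high-score sites (vertical axis) in each of the 9 bisulfite libraries (horizontal axis), with bars for sites listed in the library, sites at 500 or more there and sites at 1000 there. Sites at 1000 number 392 to 427 in control, 503 to 567 in OGD/R 1.5 h and 866 to 929 in OGD/R 3 h.

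Membership often rested on part of a group. Of 1028 sites at 500 or more in a control library, 294 (28.6%) reached 500 in all 3 control libraries, and 359 were listed in no other control library. In OGD/R 1.5 h, 444 of 1111 (40%) reached 500 in all 3 libraries and 347 were listed in no other. In OGD/R 3 h, 663 of 1899 (34.9%) reached it in all 3 and 602 were listed in no other. Hence a high score did not by itself mark a site that the next library of the group listed too. From one library to another of its group, 67.9% to 81.2% of the sites at 500 or more were listed again, and 57.5% to 75.0% again reached 500. Between libraries of different groups the ranges were 38.5% to 73.1% and 20.1% to 64.5%.

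Scores piled up at the end of the scale. A score of 1000 in at least 1 library was reached by 1845 of the high-score sites (70.5%), while 773 had a best score from 500 to below 1000 and 648 sites outside had a best score from 300 to below 500. At 1000 in all 9 libraries stood 76 sites, 27 in snoRNAs, 24 in mRNAs, 16 in tRNAs, 6 in lncRNAs, 2 in a miRNA precursor and 1 outside annotated genes. At 500 or more in all 9 stood 119. At the threshold, sites in the 5′ UTR of Ctnnd1 (p120 catenin, a partner of cadherins), between genes on chromosome 10 and in the vault RNA Vaultrc5 entered with a best score of 500. An intergenic site on chromosome 1, a site in Elf3 (an epithelial transcription factor) and a site in the snoRNA LOC115489609 stayed out with 499.

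High-score sites lay more often in small structured RNAs (43.1%, against 7.52% of the other sites). In mRNA exons lay 449 high-score sites (17.2%), against 76.9% of the other 23272 sites, and in noncoding RNA exons lay 1419 (54.2%), against 12.1%. The snoRNAs held 729 (27.8% of the high-score sites, and 42.3% of all sites listed in snoRNAs). For mRNA the last share was 2.45%, and for miRNA precursors, with 53 high-score sites of 64 listed, it was 82.8%. Intergenic stretches held 395 high-score sites, strands antisense to a gene 264, pseudogenes 226, tRNAs 111, other small RNAs 92, snRNAs 77, mitochondrial rRNAs 67, lncRNAs 64, introns of coding genes 50 and introns of noncoding genes 41. Sequence that occurs more than once also took a larger part, since 664 high-score sites (25.4%), against 9.51% of the others, had a window of 31 nt with more than 1 copy in the genome when C is read as T. Without the chromosome 17 segment described further on, a setting chosen after the data were seen, the mRNA share was 21.7%.

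**Figure D2:**
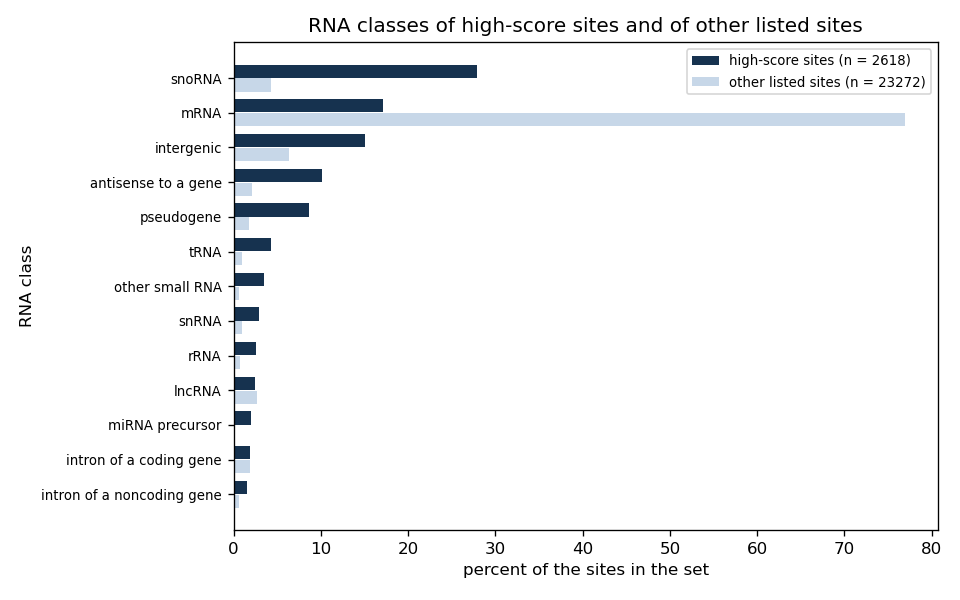
Percent of the sites in each set (horizontal axis) by RNA class (vertical axis), for the 2618 high-score sites and the 23272 other listed sites. The bars for snoRNA are 27.8% in the high-score sites, and mRNA falls from 76.9% of the other sites to 17.2%.

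The context of the cytosine differed less. Of the high-score sites 18.3% stood in CG, 28.8% in CHG and 52.9% in CHH (H is A, C or T), against 21.7%, 35.8% and 42.5% of the other sites. Within mRNA the shares were 18.3%, 40.8% and 41.0%, against 22.5%, 37.8% and 39.7%. Within noncoding exons they were 16.1%, 25.5% and 58.4%, against 14.9%, 28.4% and 56.7%, and among isolated sites CG made up 20.7% against 21.0%. The order between high-score and other sites thus differed by class. Guanine at positions +2 to +4, a feature of NSUN2 sites, was found at 94 high-score sites (3.59%) and at 3.32% of the others, and within mRNA at 5.12% against 3.24%. The share was 2.56% in windows that occur once, 4.86% among isolated high-score sites and 10.3% for guanine at +2 and +3 alone. The motif CTCCA that NSUN6 reads began at 7 (0.267%), against 0.464%, a share that was 0.490% with a threshold of 300 and 0.512% among isolated high-score sites. Among these the site with the highest sum of scores lay in the snoRNA LOC115486842 (SNORD88). It was unlisted in control, scored 538, 742 and 292 in OGD/R 1.5 h and 433, 598 and 512 in OGD/R 3 h. Thymine followed the site at +1 in 35.6% of the high-score sites and in 30.8% of the others, and guanine at +2 in 35.6% against 43.4%.

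High-score sites stood close together. Neighbours were counted within a library that listed both sites. By this count another site lay within 10 nt on the same strand for 2227 of them (85.1%) and for 53.6% of the other sites. The median distance to the next site was 3 nt against 9 nt. Of the other cytosines within 10 nt of a high-score site 72.2% were themselves listed, against 38.6% around other sites. Isolated, with no neighbour within 10 nt in a library that listed them, were 391 high-score sites (14.9%), against 46.4%. The order of the classes among isolated sites was another one: 128 lay in mRNA, in 89 genes, 62 in pseudogenes, 48 between genes, 39 antisense to a gene and 27 in snoRNAs. Of these 391, 52 were listed in all 3 groups.

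Joined where they lay within 100 nt of each other, the high-score sites formed 429 stretches, and 189 of these held a single site. The 78 stretches with 10 or more sites held 1735 of the 2618 (66.3%), and in 47 of the 78 every cytosine was listed. How far the conversion of these stretches was complete was not tested. The sites lay in 332 genes, of which 132 held 1 and 70 held 10 or more. The 8 genes with most were, with both strands counted, Rn18s-rs5 (352, of which 142 antisense), mt-Rnr2 (61, the large mitochondrial rRNA), AY036118 (44, of which 40 antisense), Lars2 (38), Gm25835 (35), Gm36876 (34), Gm25117 (33) and Snord15b (32).

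Rn18s-rs5 and AY036118 lie in a segment of chromosome 17 that resembles the ribosomal RNA precursor, a target of the depletion. At chr17:39843013-39848788 the plus strand held 407 high-score sites of 1013 listed, and the minus strand 146 of 146. Of these 146, 142 are antisense to Rn18s-rs5 and 4 lie in AY036118 on its own strand, and the minus strand carried no listed site below the threshold. The libraries listed 44, 24 and 27 in the control libraries, 21, 43 and 36 in OGD/R 1.5 h and 24, 24 and 29 in OGD/R 3 h of its sites, and 13 of the 146 were listed in all 3 groups. On the plus strand the control libraries held 81, 63 and 71 sites at 500 or more, the OGD/R 1.5 h libraries 56, 77 and 56 and the OGD/R 3 h libraries 138, 131 and 138. The last group stood above the others on the plus strand and not on the minus strand. The pseudogene site with the highest sum of scores, at position 39847088 of Rn18s-rs5, was listed in 5 of the 9 libraries, always with 1000.

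In snoRNAs the high scores fell in 83 genes, on 48.1% of their cytosines, and in 35 genes on at least 80%. Of the 83 genes, 67 of the C/D box kind (guides of 2′-O-methylation) held 640 sites, on 58.3% of the cytosines of these genes. The 10 of the H/ACA kind (guides of pseudouridylation) held 58, on 17%. Of these 58, 33 lay in Gm25117 alone, on every cytosine of that gene. In 25 genes every cytosine was listed. Gas5, a noncoding host gene, held 8 of the 83 with 89 sites on 84.8% of their cytosines. Among them LOC115487640 (SNORD81) and LOC115487644 (SNORD44) had 13 sites each and a median score of 1000 in all 9 libraries, and a site of LOC115487678 (SNORD75) at chr1 position 161035889 scored 1000 in all 9.

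More snoRNA sites reached 500 with deprivation than without, and so did sites of all classes together. The number of snoRNA genes with a site at 500 or more was 37 in control, 39 in OGD/R 1.5 h and 80 in OGD/R 3 h. At 500 or more stood 175, 185 and 194 snoRNA sites in the control libraries, 375, 374 and 386 in OGD/R 1.5 h and 406, 375 and 452 in OGD/R 3 h. In snoRNAs both deprived groups lay above control and overlapped with each other. Over all classes the control libraries held 593, 624 and 619 sites at 500 or more. Those of OGD/R 1.5 h held 688, 791 and 723, and those of OGD/R 3 h held 1172, 1227 and 1239. In 70 of the 83 genes more sites reached 500 in OGD/R 3 h than in control, and in 5 fewer. Between OGD/R 1.5 h and control the counts were 27 and 11. In 39 genes 500 was reached in OGD/R 3 h only. These 39 are part of the 70, and their direction was set by the choice of sites on the score. In 31 genes 500 was reached in all 3 groups.

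Single snoRNAs, chosen after the values were seen, went different ways. Gm25835 (SNORD10) had a median score over its 35 sites, with unlisted as 0, of 0, 134 and 341 in control and of 1000 in each OGD/R 1.5 h library, and none of the 35 was listed in OGD/R 3 h. Snord15b had medians of 95, 123 and 265 in control, 1000 in each OGD/R 1.5 h library and 383, 462 and 370 in OGD/R 3 h. For both the OGD/R 1.5 h libraries were the highest and overlapped with no other group. Snord34 had a median of 0 in control, of 0, 0 and 37 in OGD/R 1.5 h and of 828, 1000 and 1000 in OGD/R 3 h. Gm25117 (SNORA48) reached 1000 in every library but OGD/R 3 h replicate 2, where none of its 33 sites was listed. Of these 33 sites, 18 had a window with more than 1 copy. A library can thus list no site of a gene whose sites the other libraries of its group list. Why such sites were unlisted was not tested.

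In tRNAs the high scores gathered at the places NSUN2 and DNMT2 are known to methylate. They numbered 111 in 32 tRNA genes. Numbered from the anticodon and from the T loop, positions 48 to 50 at the foot of the variable loop held 60 cytosines in these genes, and 48 of them (80%) were high-score sites. At position 38 in the anticodon loop 8 of 19 cytosines were, in 6 tRNA-Asp genes, 1 tRNA-Gly gene and the mitochondrial tRNA-Met gene. Elsewhere 55 of 579 cytosines (9.50%) were high-score sites, although 41.8% of them were listed in some library. In the T arm 69 of 143 cytosines were listed and 4 had a high score.

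**Figure D3:**
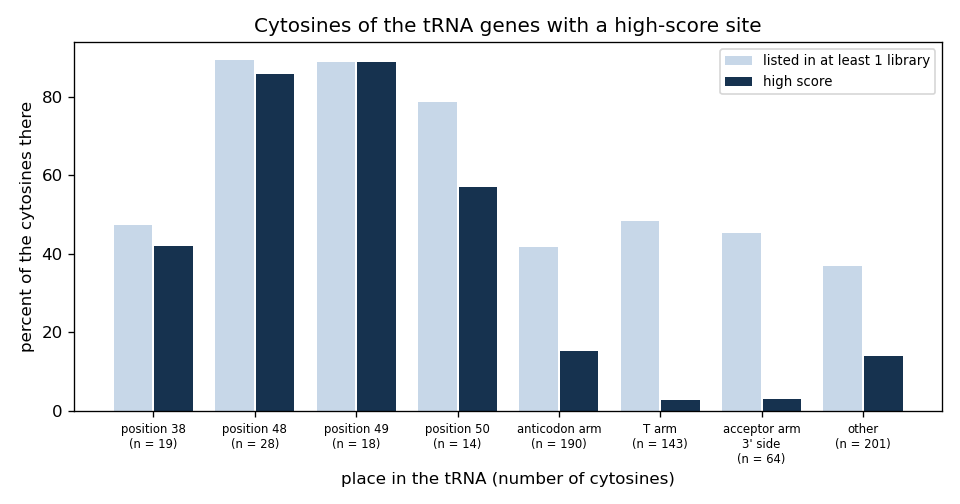
Percent of the cytosines (vertical axis) at each place of the 32 tRNA genes with a high-score site (horizontal axis, with the number of cytosines), for cytosines listed in at least 1 library and for high-score sites. Positions 48 and 49 reach 85.7% and 88.9%, position 50 reaches 57.1%, and the T arm has 48.3% listed and 2.80% with a high score.

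The tRNA families differed by position. All 6 tRNA-Asp genes had high scores at 38, 48 and 49, all 4 tRNA-Glu and all 3 tRNA-Gly genes at 48, 49 and 50, and all 7 tRNA-Leu genes at 48 alone. In n-TDgtc16, position 38 scored 1000 in all 9 libraries, and so did position 49. In n-TDgtc5, position 38 scored 1000 in 8 libraries and was unlisted in OGD/R 3 h replicate 3. In n-TEttc1, positions 49 and 50 scored 1000 in all 9 libraries, while position 48 scored 639 and 837 in control replicates 1 and 2 and 593 and 474 in OGD/R 1.5 h replicates 1 and 3, and was unlisted in the other 5 libraries. At 5 more cytosines before its anticodon arm n-TEttc1 scored 1000 in all 9. These genes lay on few chromosomes, and 101 of 102 high-score sites in nuclear tRNAs (99%) were on chromosomes 1, 10, 11, 12 and 13, which hold 203 of the 403 annotated nuclear tRNA genes (50.4%). Many copies have the same sequence, and which copy a read came from was not tested.

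Some tRNAs were covered outside these places too, in single groups or libraries. n-TKctt17 (tRNA-Lys) held 11 high-score sites along its length, listed in control replicates 2 and 3 and in no other library. n-TVcac9 (tRNA-Val) held 6, listed in the same pair of libraries. n-TGtcc3 reached 1000 at 6 cytosines outside positions 48 to 50 in OGD/R 3 h replicate 2 only, where OGD/R 3 h replicate 1 had at most 141 and OGD/R 3 h replicate 3 at most 267. The tRNA class as a whole had 44, 70 and 60 sites at 500 or more in the control libraries, 39, 39 and 40 in OGD/R 1.5 h and 41, 48 and 44 in OGD/R 3 h, so that control replicate 1 lay within the range of OGD/R 3 h.

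miRNA precursors held 57 high-score sites when a noncoding exon was counted before an mRNA exon, 40 of them within a mature miRNA, and 36 of the 57 were listed in OGD/R 3 h only. The sites named here were chosen after the values were seen. MiR-21a-5p, a miRNA raised in many injured tissues, scored 1000 at positions 4, 9 and 13 in all 9 libraries. These 3 cytosines are all it has, and they also lie in the 3′ UTR of Vmp1. Let-7i-5p scored 1000 at position 18, its single cytosine, in every library but OGD/R 3 h replicate 2, where Mirlet7i was unlisted. MiR-146a-5p, a brake on innate immune signalling, scored 1000 at positions 7, 14 and 15 in control replicate 2, OGD/R 1.5 h replicate 3 and OGD/R 3 h replicates 1 and 3. In Gm24148, which encodes miR-3535, positions 13 and 20 scored 1000 in all 9 libraries.

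Most of the remaining miRNAs had their high scores in OGD/R 3 h. The exception was Mir378a, where 3 of 4 high-score sites reached 500 in control, 4 in OGD/R 1.5 h and 2 in OGD/R 3 h. In miR-451a, a red cell miRNA, in miR-223-5p, a miRNA of granulocytes, and in miR-93-5p, miR-107-3p, miR-101a-3p and let-7d-5p, no high-score site was listed in control or OGD/R 1.5 h. MiR-126a-3p, a miRNA of endothelium, had 1000 at position 2 in each OGD/R 3 h library and was unlisted there in the others. At positions 6 and 7 it had 1000 in control replicate 2 and in the OGD/R 3 h libraries. Mir423 held 10 sites. At position 15 of miR-423-5p it scored 77, 57 and 63 in control, 99 and 114 in the OGD/R 1.5 h libraries that listed it and 772, 849 and 697 in OGD/R 3 h. That site was higher in OGD/R 3 h than in any other library.

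RNAs that RefSeq annotates as small nuclear RNAs (snRNAs) held most of their high scores in OGD/R 3 h. Sites at 500 or more in snRNAs numbered 1, 12 and 6 in the control libraries, 3, 3 and 8 in OGD/R 1.5 h and 45, 51 and 38 in OGD/R 3 h, while in the class of other small RNAs control and OGD/R 3 h overlapped, at 33, 34 and 32 and at 25, 34 and 30, and OGD/R 1.5 h lay below both, at 14, 13 and 10. Rnu3a (U3, needed for cutting the rRNA precursor) counts here as snRNA by its RefSeq class. It had 21 high-score sites, of which 5 reached 500 in control, 0 in OGD/R 1.5 h and 21 in OGD/R 3 h. Rnu7 (U7, for histone mRNA ends) had 13, with 4, 4 and 13, and its site with the highest sum was listed at 1000 in control replicate 2 alone of that group and scored 841, 398 and 1000 in OGD/R 1.5 h and 1000 in each OGD/R 3 h library. Rmrp, the RNA of RNase MRP, had 21, with 2, 3 and 21, and Rpph1, the RNA of RNase P, had 18, with 10, 8 and 18. The Y RNA Rny1 had 19, with 7, 13 and 9. The signal recognition particle RNAs Rn7s2 and Rn7s1 went the other way, with 15 and 10 high-score sites, all listed in control and none in the other groups. Of these, 14 in Rn7s2 and 10 in Rn7s1 had a window with more than 1 copy. Which copy a read came from was not tested.

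Among longer noncoding RNAs, Gm46178 held 23 high-score sites within 90 nt, 21 of them with a window of more than 1 copy. Its site at position 191121112 scored 1000 in all 9 libraries. Malat1, a nuclear lncRNA, held 15, spread out along the transcript, of which 11 were listed in control, 6 in OGD/R 1.5 h and 11 in OGD/R 3 h. Of these the site at position 5802396, chosen after its values were seen, scored 443, 542 and 274 in control, 208 and 327 in the OGD/R 1.5 h libraries that listed it and 717, 992 and 546 in OGD/R 3 h. In mitochondrial rRNA the site with the highest sum was position 134 of mt-Rnr1, unlisted in control replicate 1 and in OGD/R 3 h replicates 2 and 3 and from 772 to 1000 in the other libraries.

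Between genes, 356 of 395 high-score sites lay on chromosomes 1, 10 and 17. Several of these stretches repeat annotated RNAs. Of the words of 16 nt in the stretch at chr1:56782277-56782344 on the plus strand, 80.7% occur antisense in the chromosome 17 segment, and its 20 sites were listed in OGD/R 3 h only. Of those at chr1:24613131-24613159 on the minus strand, 95.5% occur in the mitochondrial genome. There the site at 24613132 scored 134, 110 and 401 in the control libraries, 20, 11 and 7 in OGD/R 1.5 h and 1000 in each OGD/R 3 h library, with no overlap between any groups. A stretch at chr1:131573883-131573963 on the minus strand held 24 sites, each cytosine in it, all of them listed in control, 2 in OGD/R 1.5 h and none in OGD/R 3 h. Gm36876 on chromosome 11 held 34 sites on both strands, and all were listed in OGD/R 1.5 h replicate 2 and in no other library.

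In mRNA the high-score sites fell in 144 genes, 230 of them in coding sequence (51.2%, against 71.1% of the other mRNA sites), 121 in 5′ UTRs (26.9% against 19.9%) and 98 in 3′ UTRs (21.8% against 8.97%). A part of these is sequence of other RNAs within an mRNA. The 23 sites in the 3′ UTR of Tmem38b, a potassium channel of the endoplasmic reticulum, also lie in an annotated 5S rRNA gene, 22 mRNA sites also lie in a snoRNA exon and 4 in a miRNA precursor. In no noncoding exon lay 381, in 126 genes. The 38 sites of Lars2, a mitochondrial leucyl-tRNA synthetase, filled 173 nt of its 3′ UTR, and 32 of them had a window with more than 1 copy.

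Of the mRNA sites at 500 or more in all 9 libraries, 22 lay in Lars2, 13 in Tmem38b and 3 in Vmp1, and the other genes with such a site were Fcgbp, Lgals4, Apoa1 and Apoa4. Apoa4, an apolipoprotein of intestinal chylomicrons, had 1000 in all 9 at position 46242988 of chromosome 9. Apoa1, the main protein of high-density lipoprotein, at position 46230038 scored 856, 811 and 533 in the control libraries, 751, 863 and 958 in OGD/R 1.5 h and 1000 in each OGD/R 3 h library. Fcgbp, a protein of goblet cell mucus, at position 28086689 of chromosome 7 scored 1000, 785 and 578 in the control libraries, 1000, 692 and 604 in OGD/R 1.5 h and 885, 578 and 677 in OGD/R 3 h. Apoa1 was highest in OGD/R 3 h at this site, and for Fcgbp the groups overlapped. Lgals4, a galectin of gut epithelium, at position 28835947 scored 741, 795 and 763 in control, 1000 in each OGD/R 1.5 h library and 648, 686 and 691 in OGD/R 3 h. Its 3 groups did not overlap.

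**Figure D4:**
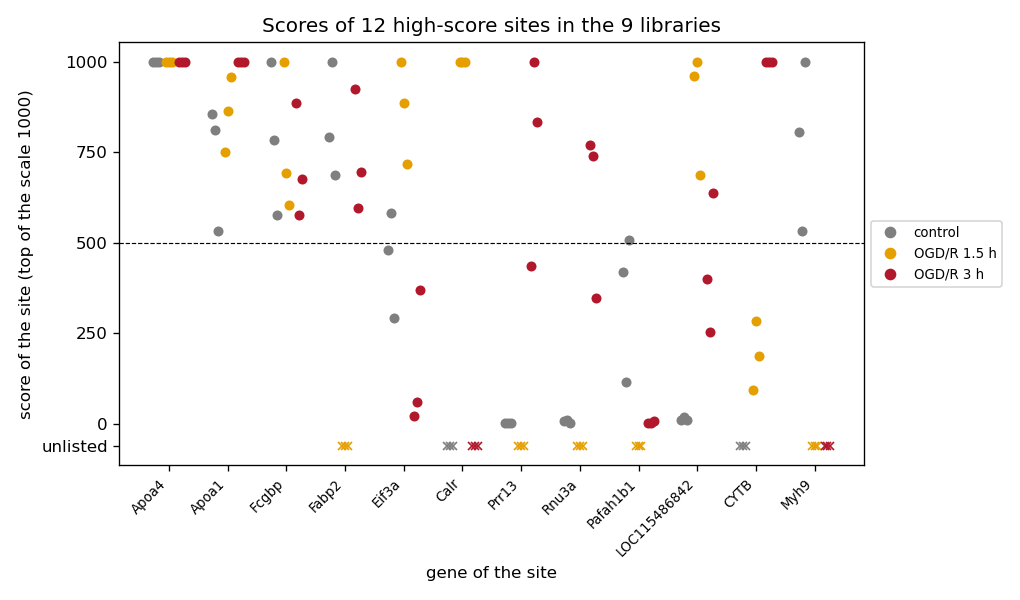
Score of 12 high-score sites (vertical axis, whole scale from 0 to 1000, crosses for libraries that did not list the site) by gene (horizontal axis), with 1 point for each of the 9 libraries and the threshold of 500 as a broken line. Apoa4 is at 1000 in all 9 libraries, while the site of Calr is listed in OGD/R 1.5 h only and that of Myh9 in control only.

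Listed in all 3 groups were 867 high-score sites (33.1%, against 4.13% of the other sites), in 2 groups 727 (27.8% against 16.4%) and in 1 group 1024 (39.1% against 79.5%). The sites of 1 group were 607 in OGD/R 3 h, 258 in control and 159 in OGD/R 1.5 h. Those of a pair were 324 in both OGD/R groups, 215 in control and OGD/R 3 h and 188 in control and OGD/R 1.5 h. By class, 54.3% of the high-score sites in snoRNAs and 43.2% of those in tRNAs were listed in all 3 groups, against 26.3% in mRNA and 11.4% on strands antisense to a gene. All 9 libraries listed 288 high-score sites, and a single library listed 446.

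**Figure D5:**
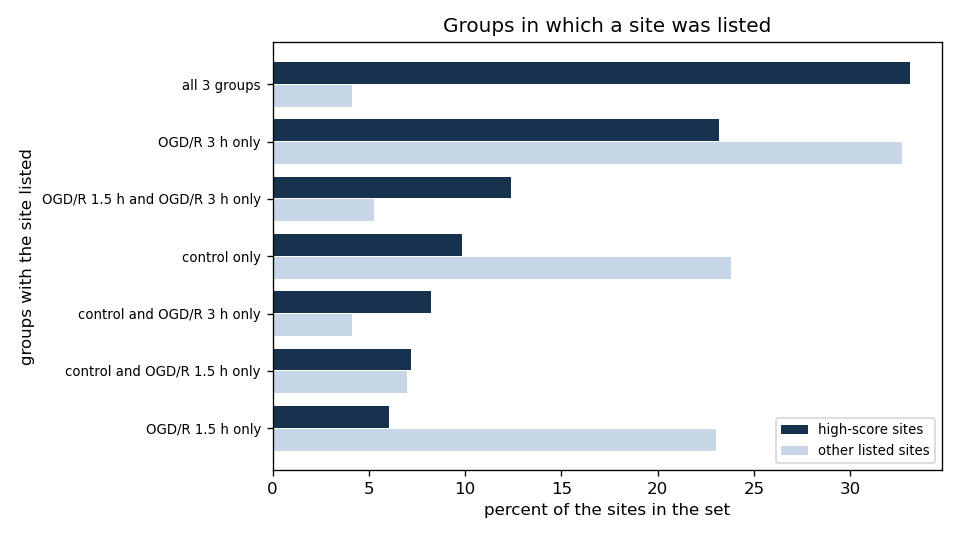
Percent of the sites in each set (horizontal axis) by the groups that listed them (vertical axis), for high-score sites and other listed sites. All 3 groups listed 33.1% of the high-score sites and 4.13% of the others.

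At 500 or more in all 3 libraries of a group and unlisted, at any score, in every library of the others stood 200 sites for OGD/R 3 h, 48 for control and 13 for OGD/R 1.5 h. Of the 200, 117 lay in mRNA. Among these were all 31 high-score sites of the erythroid markers and all 21 of the neutrophil and bone marrow markers. The genes of any class with 6 or more of the 200 were Hbb-bs (25), S100a8 (9), H1f3 (8, a linker histone), ND2 (8), S100a9 (7), Gm24148 (7), Anxa1 (6, an anti-inflammatory annexin), Apoa1 (6), Hbb-bt (6) and Rnu7 (6). In Tmsb4x, which encodes an actin-binding peptide, 3 of 9 sites met this, and in Cyba, a subunit of the phagocyte NADPH oxidase, 4 of 7. In stretches of 2 or more sites, OGD/R 3 h alone held 14 in mRNA with 93 sites, a median length of 22 nt and 88.0% of their cytosines listed, while control alone and OGD/R 1.5 h alone held 0 in mRNA. Of the 13 in OGD/R 1.5 h, 8 lay in mRNA, 1 each in Apoa1, Apoa4, Krt20, Lgals2, Rrbp1, Calr, Canx and Hsp90b1. Of these, Rrbp1 (a ribosome-binding protein), Calr and Canx (lectin chaperones) scored 1000 in the 3 libraries of OGD/R 1.5 h, and Hsp90b1, a chaperone of the endoplasmic reticulum, scored 554, 729 and 839. Calr also had 1 such site in OGD/R 3 h, and over its 7 high-score sites 1 reached 500 in control, 2 in OGD/R 1.5 h and 5 in OGD/R 3 h. Of the 48 in control, 12 lay in mRNA, among them 4 in Apoa1 and 1 in Myh9, a nonmuscle myosin, which scored 806, 534 and 1000.

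Where scores could be set side by side, OGD/R 3 h was more often above control than below it. High-score sites listed in all 6 libraries of these groups numbered 351. In 130 of them (37.0%) every OGD/R 3 h score was above every control score, beside 30% of the 557 sites of any score listed in all 6. In 21 (5.98%) every OGD/R 3 h score was below, beside 8.62%. The score chose the members, so these shares stand as a description. At 1000 in all 6 libraries, where no difference can show, stood 109 (31.1%). Above were 63 of the 135 sites in snoRNAs, 34 of 53 between genes, all 13 in the snRNA class and 10 of 97 in mRNA. Of the 21 below, 16 lay in mRNA. With control replicate 1 left out the count above was 178. Among isolated high-score sites 1 lay above and 8 below. The same shares over all listed sites of a class, or over all isolated sites, were not counted, so no balance is read from these counts.

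By the log2 difference, the rises named were in Prr13, Ccar1 and Rnu3a. Where a library stands at 1000, the end of the scale, the difference is a lower bound, and where control scores are near 0 it depends on the 1 added to each score. A site in the 5′ UTR of Prr13 scored 2, 3 and 2 in control, was unlisted in OGD/R 1.5 h and scored 436, 1000 and 834 in OGD/R 3 h, a mean difference of 7.76 on the log2 scale. An intron site of Ccar1, a regulator of cell cycle and apoptosis, scored 2, 1 and 11 in control and 100, 561 and 483 in OGD/R 3 h (log2 difference 6.18). The site, at position 62765622 of chromosome 10, lies near the snoRNA Snord98 (62765579-62765606) on the same strand. The 3 high-score sites of Snord98 had median scores of 23, 7 and 52 in control and 157, 549 and 508 in OGD/R 3 h. Which of these RNAs the reads came from was not tested. In Rnu3a 3 sites rose. At position 40258595 it scored 10, 11 and 3 in control and 769, 741 and 349 in OGD/R 3 h (6.18) and was unlisted in OGD/R 1.5 h, at 40258611 the log2 difference was 5.68, and the site at position 40258619 scored 31, 27 and 26 in the control libraries, 81, 64 and 64 in OGD/R 1.5 h and 763, 1000 and 947 in OGD/R 3 h (4.96), and its 3 groups did not overlap.

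The falls named by the same measure lay in mRNA. In the 5′ UTR of Pafah1b1 (Lis1, a dynein regulator needed for neuronal migration) the scores were 421, 115 and 508 in control and 2, 3 and 10 in OGD/R 3 h, and the mean fell by 5.84 on the log2 scale. Myo18a had 248, 194 and 147 in the control libraries, 86, 518 and 136 in OGD/R 1.5 h and 12, 14 and 3 in OGD/R 3 h. Myo1a, a myosin of the intestinal brush border, had 518, 261 and 147 in control and 139, 8 and 19 in OGD/R 3 h. Each of these 3 sites reached 500 in 1 library. Psmb10, a subunit of the immunoproteasome, had 944, 655 and 277 in control and 64, 64 and 56 in OGD/R 3 h, and the predicted gene Gm14781 had 643, 101 and 134 against 36, 4 and 34.

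Between OGD/R 1.5 h and control, 437 high-score sites were listed in all 6 libraries. In 125 (28.6%) every OGD/R 1.5 h score was above every control score, beside 21.8% of the 689 sites of any score, and in 36 (8.24%) every one was below, beside 9.0%. With windows that occur once the count below was 19, and among isolated sites 5 were above and 5 below. Above were 97 of the 214 sites in snoRNAs and 10 of 102 in mRNA, and of the 36 below, 21 lay in mRNA. The same shares over all listed sites of these settings and classes were not counted. The 2 comparisons share the control libraries. In LOC115486842 (SNORD88) the site at position 44250487 scored 11, 21 and 11 in the control libraries, 959, 1000 and 686 in OGD/R 1.5 h and 399, 253 and 637 in OGD/R 3 h. In Gm46178 the site at position 191121160 fell, with 398, 312 and 87 in the control libraries, 11, 24 and 3 in OGD/R 1.5 h and 974, 762 and 1000 in OGD/R 3 h. With control replicate 1 left out, the count above was 177.

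The gene lists differed in how much of their sites scored high. Of all sites listed in mRNA exons 2.45% scored high. Of 334 sites in the list of mitochondrially encoded genes, rRNAs and tRNAs included, 100 (29.9%) were high-score sites, and 21 of them reached 500 in control, 21 in OGD/R 1.5 h and 86 in OGD/R 3 h. Most of the 100 lay in the rRNAs. All 67 high-score sites of the rRNA class are mitochondrial, so its share of 29.1% rests on the same sites and is no separate background. Over the whole tRNA class the share was 33.6%. CYTB, a subunit of complex III, had a site unlisted in control, at 94, 285 and 187 in OGD/R 1.5 h and at 1000 in each OGD/R 3 h library. ND2, a subunit of complex I, had 11, listed in OGD/R 3 h only. Of 157 sites in apolipoprotein genes 44 (28.0%) scored high, with 23 at 500 or more in control, 10 in OGD/R 1.5 h and 27 in OGD/R 3 h.

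Cytosolic ribosomal protein genes had 15 high-score sites of 173 (8.67%), 12 of them in Rpl21, where 10 reached 500 in control, 12 in OGD/R 1.5 h and 11 in OGD/R 3 h. These 12 formed a stretch of 61 nt in which every cytosine was listed, so that the share of 8.67% rests mostly on 1 stretch. Translation factors had 4 of 320 (1.25%). Eif3a, the scaffold of an initiation factor, had 481, 583 and 292 in the control libraries, 1000, 887 and 717 in OGD/R 1.5 h and 23, 61 and 370 in OGD/R 3 h, with OGD/R 1.5 h above both. Chaperones had 13 of 301 (4.32%), MHC and antigen presentation 3 of 130 (2.31%), solute carriers 2 of 411 (0.487%), and glycolysis 0 of 83 in the 7 genes with a site. In the actomyosin list 19 of 606 scored high (3.14%), 9 of them in Actb, which reached 500 in OGD/R 3 h only.

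Keratins had 6 of 67 (8.96%), and Krt20, a keratin of mature gut epithelium, had 3 sites, each listed in another group alone. Their scores were 631, 844 and 799 for the site of control, 1000, 990 and 889 for that of OGD/R 1.5 h and 229, 258 and 505 for that of OGD/R 3 h. The goblet mucus list had 13 of 198 (6.57%), all of them in Fcgbp. Lipid binding proteins had 4 of 33 (12.1%), and in Fabp2, the intestinal fatty acid binding protein, the site with the highest sum scored 793, 1000 and 686 in control and 924, 596 and 695 in OGD/R 3 h and was unlisted in OGD/R 1.5 h. The high-score site of Fabp1 was likewise listed in control and OGD/R 3 h, at 1000, 670 and 591 and at 895, 442 and 763. For both these sites control and OGD/R 3 h overlapped.

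Summed scores at markers of some other cell types differed between the groups. The 15 intestinal markers with a high-score site held 85 such sites, 24 of them in Apoa1, and their summed score was 29067, 31431 and 28491 in the control libraries, 13812, 12497 and 13122 in OGD/R 1.5 h and 32871, 30641 and 34680 in OGD/R 3 h. The 15 were Apoa1, Apoa4, Fcgbp, Epcam, Muc13, Anpep, Krt20, Krt8, Fabp2, Lgals4, Pigr, Vil1, Fabp1, Lct and Slc5a1. In the same list Cdx2, Cdh17, Cdx1, Muc2, Krt18, Krt19, Elf3, Tff3 and Cdhr5 had listed sites below the threshold, and Mep1a had none. Of the 25 genes, 12 also stand in another list. Erythroid markers had 31 high-score sites, 25 in Hbb-bs and 6 in Hbb-bt, with a sum of 31000 in each OGD/R 3 h library and 0 in the other 6, and Hba-a1, Hba-a2, Alas2 and Slc4a1 had no site. Of these genes Slc4a1 also stands in another list. Neutrophil and bone marrow markers had 21, in S100a8, S100a9 and Ngp, with 21000, 21000 and 20941 in OGD/R 3 h and 0 in the other libraries, while Camp, Ltf, Elane, Mpo and Lcn2 had no site. For the erythroid and neutrophil lists the OGD/R 3 h libraries were the highest. For the intestinal list those of OGD/R 1.5 h were the lowest, and control and OGD/R 3 h overlapped. Over all 684 sites listed in these genes, at any score, 222 were listed in control, 153 in OGD/R 1.5 h and 428 in OGD/R 3 h. The smooth muscle list, with 5 of its 8 genes in another list, had 2, both in Myh11, with sums of 1044, 642 and 439 in the control libraries, 497, 339 and 1068 in OGD/R 1.5 h and 76, 137 and 157 in OGD/R 3 h. Astrocyte, oligodendrocyte and fibroblast markers had a listed site in 1 gene each and no high-score site, and microglia and macrophage markers had neither. The summed sites were chosen on these same scores. Differences in the number of cells of a type, in RNA per cell, in depth and in methylation cannot be told apart here. The part of these markers in the results above was not tested.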

How the data were processed

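The authors trimmed reads with cutadapt 1.9.3 after base calling with CASAVA 1.8, named STAR in the submission, and called sites in each bisulfite library on mm10. The deposited value per site is a score, 10 times the call score of meRanCall, whole part only and at most 1000, with no normalization for depth. Sites were read at their deposited position and strand, and all 25890 fell on a cytosine. RNA classes came from RefSeq GRCm38.p6, with mRNA exons counted first. Members and lists were chosen with earlier results of these data known. Named sites were those with the highest score sums (overall and per class or motif), those of 500 or more in all libraries of 1 group only, the largest non-overlapping rises and falls, the values next to the threshold, the genes with most sites and up to 4 genes per list. Log2 differences are of the score plus 1. Alternatives were thresholds of 300 and 1000, 2 libraries or all 3 of a group, isolated sites, single-copy windows, other distances, noncoding exons first, GENCODE M21, a shorter guanine motif, each library left out and, chosen after seeing the data, no chromosome 17 segment. No test was run. The script was tested on simulated data with Python 3.11.15, numpy 2.4.6, pandas 2.3.3, scipy 1.17.1, numba 0.67.0 and matplotlib 3.10.9.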

Additional observations from a re-analysis of the deposited data

How the results depend on the processing

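No paired analysis was possible because the 3 libraries of a group were counted as 1 sample and no test was run. Where a value moved, the cause was not tested unless the setting itself gives it (a higher threshold or fewer sites).

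With a score of at least 300 the share of high-score sites in mRNA exons was 22.4%, that of isolated sites 18.9% and that of sites listed in all 3 groups 29.7%. With 1000 these were 13.4%, 11.8% and 36.3%, and 12 sites had OGD/R 3 h below control. With the threshold reached in at least 2 libraries there were 1700 sites, with 18.6% in mRNA, 8.65% isolated and 43.9% in all 3 groups. With it reached in all 3 libraries of a group there were 964, with 25.8% in mRNA, 14.8% in CG, 6.12% isolated, 51.0% in all 3 groups and 13 with OGD/R 3 h below control. Among isolated sites only, there were 391, with 32.7% in mRNA, 20.7% in CG and 13.3% in all 3 groups. Of these, 1 had OGD/R 3 h above control and 8 below, against 130 and 21 among all high-score sites. These counts were not made over all isolated sites of any score. The isolated share has no value in that setting.

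With windows that occur once the mRNA share was 19.4%, the CG share 16.7% and the share in all 3 groups 35.1%. Without the chromosome 17 segment, chosen after seeing the data, these were 21.7%, 15.6% and 36.5%. The mRNA share was 14.6% with noncoding exons first and 18.8% with GENCODE. The isolated share was 30.3% within 5 nt and 4.43% within 50 nt. Of all high-score sites 11% were listed in all 3 libraries of every group.

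With each library left out in turn the number of high-score sites was 2391 to 2587, the mRNA share 16.9% to 17.7%, the CG share 17.8% to 18.7%, the isolated share 14.8% to 15.7%, the share in all 3 groups 30.5% to 32.9%, and the counts with OGD/R 3 h above and below control 129 to 178 and 20 to 28.

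The score joins coverage and level, its scale ends at 1000 and read depth is unknown, so that more high scores in a group cannot be told apart from deeper sequencing.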
